A study of Mus musculus with 48 samples.

Results

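The genes described here encode the proteins of the cytosolic ribosome. They were chosen by symbol among probe sets annotated with a single one. Every gene named Rpl or Rps with a number, Rplp0 to Rplp2 or Rpsa was taken, without pseudogenes and without the S6 kinases. The rule found 69 of the 22180 genes on the array. Of these, 65 passed the filter on low signal and were tested. Of the members found, they were 31 of 32 in the large subunit, 2 of 3 in the ribosomal stalk and all 23 in the small subunit. The rest were 5 of 6 paralogues, 2 of 3 gene copies and both genes whose products are not in the mature ribosome. Neither subunit is complete, as 14 further symbols, such as Rpl10 and Rps2, occurred only on probe sets with several symbols and were not members. The probe sets with a single symbol of Rpl37, Rplp2, Rpl10l and Rpl32l lay below the filter. For Rplp2 a further probe set, shared with Snora52 and at a mean of 8.24, was left out as all shared sets were.

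A ribosome joins a small subunit, which decodes the message, to a large subunit, which makes the peptide bond, and each mature subunit holds its proteins in fixed proportion. Ribosomal protein messages of vertebrates begin with a C followed by a run of pyrimidines, the 5′ terminal oligopyrimidine tract. Through this tract their translation follows the nutrient-sensing kinase complex mTORC1, and in rodent liver it has long been studied in fasting and refeeding.

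Livers came from 48 mice aged 15 months, 1 array per mouse. From 3 weeks of age the mice, kept 3 to a cage, had free access to diets of 3 energy densities in which protein, carbohydrate and fat supplied different percentages of the energy, written in that order (5/75/20). Protein supplied 5% of energy for 10 mice, 14% for 9, 23% for 9, 33% for 9, 42% for 5 and 60% for 6. Energy density was low for 5 mice, medium for 14 and high for 29, in 20 combinations of 1 to 4 mice. The 5% share occurred at high energy density alone. Strain is not given in the labels, and both sexes entered the study without the sex of each mouse in the labels. Known hepatocyte markers such as Alb and Apoa1, 9 in all, were measured, with mean levels from 8.32 to 12.9.

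Values are log2 levels of a probe set, and the interquartile range over all probe sets of an array, called the array range below, ran from 2.78 to 3.63. It averaged 3.48 ± 0.13 at 5% protein (SD, n = 10), 3.30 ± 0.17 at 14%, 3.19 ± 0.27 at 23%, 3.17 ± 0.14 at 33%, 3.21 ± 0.27 at 42% and 3.16 ± 0.20 at 60%. The spread of the arrays thus moved with dietary protein, and each comparison is given without and with the array range in the model. The single mouse on the medium energy 14/29/57 diet also stood apart. The mean over the 65 members was 7.12 in that mouse and 6.06 to 6.75 in the other 47.

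Dietary protein was first tested as a straight line over all 48 mice, as the log2 change when 10 points of energy came from protein in place of equal parts of carbohydrate and fat. Levels of 4 of the 65 members fell as protein rose and 0 rose (limma, Benjamini-Hochberg adjusted p under 0.05). Among all 16926 genes tested, 3.65% fell and 3.37% rose, and the 4 of 65 members are read against that background. The members' median slope was -0.011, with 28 slopes above 0, against a median of -0.0019 over all genes. Without the medium energy 14/29/57 mouse, 3 members fell, 37 slopes were above 0 and the median was 0.0073. Among all 16926 genes, 704 fell and 585 rose in that fit.

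Rpl4, a large subunit protein that lines the peptide exit tunnel, fell by 0.068 for each 10 points of protein (SE 0.017, adjusted p = 0.0101). Its level averaged 11.22 ± 0.10 at 5% protein (SD, n = 10), 11.09 ± 0.21 at 14%, 11.00 ± 0.18 at 23%, 10.93 ± 0.13 at 33%, 10.98 ± 0.16 at 42% and 10.98 ± 0.17 at 60%. The means declined up to 33% protein and lay within one SD of each other above that. Rpl28, a large subunit protein found in eukaryotes, ran from 10.70 through a median of 10.96 to 11.16 at 5% protein, and from 10.26 through 10.65 to 10.73 at 60%. Its slope was -0.072 (SE 0.023, adjusted p = 0.0475). The 10 mice on 5% and the 6 mice on 60% protein overlapped only between 10.70 and 10.73.

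Rps6, the small subunit protein phosphorylated by the S6 kinases downstream of mTORC1, ran from 10.87 through a median of 10.96 to 11.09 at 5% protein, and from 10.56 through 10.79 to 10.94 at 60%. Its slope was -0.056 (SE 0.018, adjusted p = 0.0453). Rps4x, an X-linked small subunit protein, ran from 9.60 through 9.99 to 10.26 at 5% protein and from 9.53 through 9.71 to 10.17 at 60%. Its slope was -0.071 (SE 0.021, adjusted p = 0.0366). Both genes overlapped between these shares, and the highest level of each was that of the medium energy 14/29/57 mouse, 11.72 for Rps6 and 10.86 for Rps4x.

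**Figure D1:**
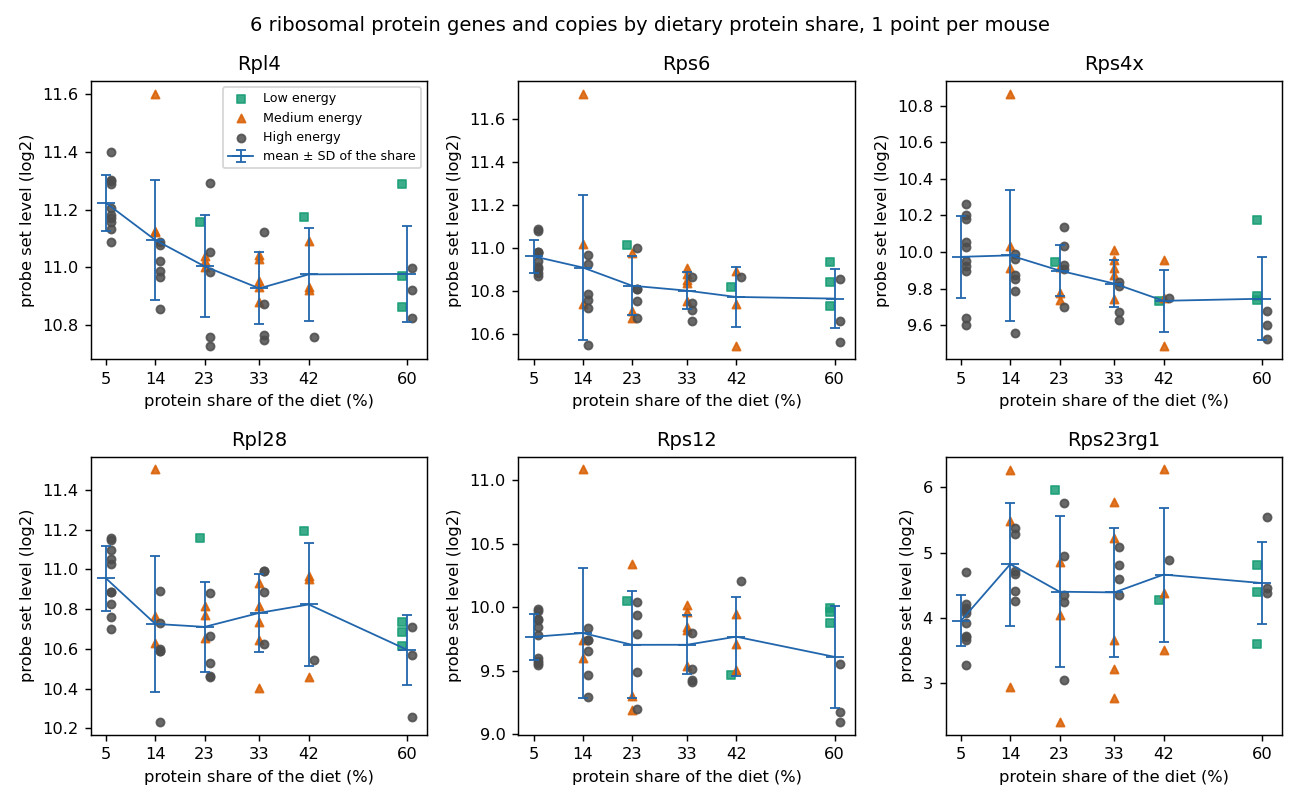
Levels (log2, vertical axes) of 6 genes by the protein share of the diet (percent of energy, horizontal axes), 1 point per mouse, with symbols for low, medium and high energy and a line through the mean ± SD of each share. Rpl4, Rps6, Rps4x and Rpl28 are the 4 members that fell with protein; the medium energy 14/29/57 mouse is the high triangle at 14%.

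These calls were few and unsteady. Leaving out 1 mouse at a time left between 1 and 7 members called. Rpl4 stayed called in all 48 fits, while Rps4x lost its call in 5, Rps6 in 18 and Rpl28 in 27. These are calls of the probe set used for each gene. A further Rpl4 probe set, at a mean of 4.71, had a slope of -0.0035 in limma over 28941 probe sets (adjusted p = 0.974). Without the high energy 60/20/20 mouse 126, 7 were called, adding Rpl21 at -0.068 and, with slopes above 0, Rpl27a at 0.097 and Rps27l at 0.12. Without mouse 129 (high energy 5/20/75), 199 or 435 (high energy 5/48/48) or 440 (high energy 42/29/29), Rpl4 alone was called. Without mouse 128, 160 or 426 (high energy 5/75/20), 130 (5/20/75), 135 (5/48/48), 162 (33/20/47), 194 (60/20/20), 141 or 142 (low energy 60/20/20), 213 (low energy 23/38/38), 192 (medium energy 42/29/29) or 418 (medium energy 33/47/20), 2 were called. With diet combination as a random block, Rpl4 alone of the 4 stayed called (adjusted p = 0.0211), and adjusted p was 0.0643 for Rps4x, 0.0727 for Rps6 and 0.0762 for Rpl28.

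With the array range in the model, 0 members passed the threshold (limma), and 0.668% of all genes did, in either direction. At an unadjusted p under 0.05 there were 18 members and 10.4% of all genes, against 10 members and 26.6% of all genes without the array range. Slopes were then below 0 for 51 of 65 members, with a median of -0.044 against 0.0018 over all genes. The smallest p belonged to Rps12, a small subunit protein, at -0.11 (SE 0.031, adjusted p = 0.0998). Rps4x stood at -0.075 (adjusted p = 0.140) and Rps6 at -0.061 (adjusted p = 0.155). Without the medium energy 14/29/57 mouse, 2 members fell in this fit, Rps12 at -0.093 and Rps6 at -0.052 (adjusted p = 0.0265 and 0.0466), with 14 slopes above 0. Among all 16926 genes, 72 fell and 123 rose without that mouse. Dividing each array by its range turned the slopes of Rpl4, Rps6, Rps4x and Rpl28 positive, 0.087, 0.097, 0.063 and 0.079, none of them past the threshold. By construction that scaling lowers a gene in proportion to its level on arrays of larger range. The range was 3.48 at 5% and 3.16 at 60% protein. The sign of the slopes is not read as a diet effect under this scaling or with the array range in the model.

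The sharpest contrast within one energy density set the 10 mice on 5% protein against the 19 on 14 to 60%, all on high energy diets, with the carbohydrate to fat exchange in the model. These mice also entered the slope above, so both results share animals. At 5% protein, 5 members were higher and 1 was lower. Of all genes, 11.2% were higher and 6.42% lower, so the share of members called was below the background in both directions. The median difference was -0.023, with 29 of 65 above 0, against -0.0014 over all genes. Leaving out 1 mouse at a time moved the median between -0.043 and 0.015, and 23 to 34 differences were above 0. The median was above 0 without mouse 440 (high energy 42/29/29), at 0.015, without 408 (23/38/38), at 0.0019, and without 135 (5/48/48), at 0.00022.

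Among large subunit proteins, Rpl4 ran from 11.09 through a median of 11.19 to 11.40 at 5% protein, against 10.72 through 10.97 to 11.29 at 14 to 60%. The difference was 0.28 (SE 0.061, adjusted p = 0.00384), and the groups overlapped in their tails. The further Rpl4 probe set differed by -0.22 in limma over 28941 probe sets (adjusted p = 0.474). Rpl28 ran from 10.70 through 10.96 to 11.16 at 5% protein, against 10.23 through 10.60 to 11.00 at 14 to 60%, a difference of 0.31 (SE 0.082, adjusted p = 0.0146). Rpl21, also of the large subunit, ran from 11.15 through 11.32 to 11.42 at 5% protein, against 10.77 through 11.05 to 11.41 at 14 to 60%. Its difference was 0.22 (SE 0.066, adjusted p = 0.0246). All 10 mice on 5% protein thus lay above the median of the other group for Rpl21.

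The stalk recruits the factors that drive initiation, elongation and release. Rplp1, one of its acidic proteins, ran from 10.24 through 10.50 to 10.73 at 5% protein, against 9.89 through 10.26 to 10.61 at 14 to 60%. The difference was 0.26 (SE 0.082, adjusted p = 0.0293). A further Rplp1 probe set, at a mean of 1.77, differed by -0.024 in limma over 28941 probe sets (adjusted p = 0.926). Rplp0, which anchors the acidic proteins to the large subunit, averaged 6.97 ± 0.36 at 5% protein and 7.15 ± 0.50 at 14 to 60% (SD, n = 10 and 19) and did not pass the test (adjusted p = 0.362).

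Among small subunit proteins Rps6 passed the test. It ran from 10.87 through 10.96 to 11.09 at 5% protein, against 10.55 through 10.76 to 11.00 at 14 to 60%, a difference of 0.18 (SE 0.054, adjusted p = 0.0219). The lowest of the 10 mice on 5% protein lay above the median of the other group. Leaving out 1 mouse at a time kept Rpl4, Rpl28, Rps6 and Rps23rg1 called in all 29 fits; Rplp1 lost its call without mouse 130, 199 or 129 and Rpl21 without 135 or 129 (all on 5% protein). Rps4x differed by 0.17 (adjusted p = 0.119) and Rps12 by 0.16 (adjusted p = 0.262), neither past the threshold.

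The one member that was lower was Rps23rg1, a retrocopy of the small subunit gene Rps23 in mouse. It ran from 3.28 through 3.998 to 4.71 at 5% protein, against 3.05 through 4.67 to 5.76 at 14 to 60%. The difference was -0.72 (SE 0.21, adjusted p = 0.0200), and the 5% group lay inside the range of the other. Rps23 itself gave no call. The paralogues did not pass the test either: Rps27l, which p53 induces, differed by -0.22 (adjusted p = 0.284), Rpl39l, known from the male germ line, by -0.25 (adjusted p = 0.0799), Rpl3l, the form of striated muscle, by -0.11 (adjusted p = 0.352) and Rpl22l1 by 0.048 (adjusted p = 0.756). Rpl5 and Rpl11, which bind Mdm2 when ribosome assembly stalls, differed by 0.042 and 0.055 (adjusted p = 0.854 and 0.730).

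Once the array range entered the model, a different set of members passed. At 5% protein, 11 were higher and 0 lower, against 0.685% of all genes higher. Differences were above 0 for 59 of 65 members, 28 of 31 in the large subunit and 23 of 23 in the small subunit, with a median of 0.27 against -0.0033 over all genes. Unadjusted p was under 0.05 for 39 members, against 13.1% of all genes. Rps6 was the single member called in both fits. The array range itself averaged 3.48 at 5% and 3.18 at 14 to 60% protein in these mice, so this fit also depends on how the range is treated.

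The 11 members were, in the large subunit, Rpl32, Rpl10a, Rpl38, Rpl41 and Rpl14 and, in the small subunit, Rps19, Rps12, Rpsa, Rps10, Rps9 and Rps6. Rps19, the gene first found mutated in human Diamond-Blackfan anaemia, had the largest of these differences, 0.56 (SE 0.11, adjusted p = 0.00568). Its plain levels ran from 7.20 through 7.67 to 8.14 at 5% protein, against 6.93 through 7.69 to 8.44 at 14 to 60%, and did not differ by themselves (-0.0054, 95% interval -0.32 to 0.31). Among arrays whose range lay within that at 5% protein, Rps19 differed by 0.34 (adjusted p = 0.215), not past the threshold.

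Rpsa, a small subunit protein also known as the laminin receptor precursor, differed by 0.49 (SE 0.091, adjusted p = 0.00289) with the array range and by 0.025 without it. It ran from 9.005 through 9.33 to 9.79 at 5% protein, against 8.80 through 9.45 to 9.88 at 14 to 60%. Rpl38, needed for translation of Hox messages in mouse embryos, differed by 0.45 (SE 0.081, adjusted p = 0.00179) with the array range and by 0.18 (adjusted p = 0.123) without it. Rpl38 ran from 9.46 through 9.56 to 9.95 at 5% protein, against 9.10 through 9.54 to 9.78 at 14 to 60%. For both genes the plain levels of the groups overlapped over most of their range.

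The large subunit proteins Rpl32 and Rpl10a differed by 0.52 and 0.50 with the array range (adjusted p = 0.00471 and 0.0212), and by -0.024 and 0.13 without it. Rps12 and Rps10 of the small subunit differed by 0.49 and 0.48 (adjusted p = 0.00481 and 0.0365). Rpl28, Rpl4, Rplp1 and Rpl21, called without the array range, stood at 0.30, 0.16, 0.24 and 0.092 with it, adjusted p from 0.180 to 0.679. Rps23rg1 stood at -0.56 (adjusted p = 0.354). Leaving out 1 mouse at a time gave 8 to 17 members called with the array range. The fit without mouse 165 (high energy 14/29/57) gave 17, with 157 of all genes higher. The fit without mouse 160 (high energy 5/75/20) gave 8, with 86 of all genes higher. With all mice 116 genes were higher. Rps10 lost its call in 11 of the 29 fits and Rpl10a in 2, while Rps19, Rpl32, Rps12, Rpsa and Rps6 kept theirs in all.

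**Figure D2:**
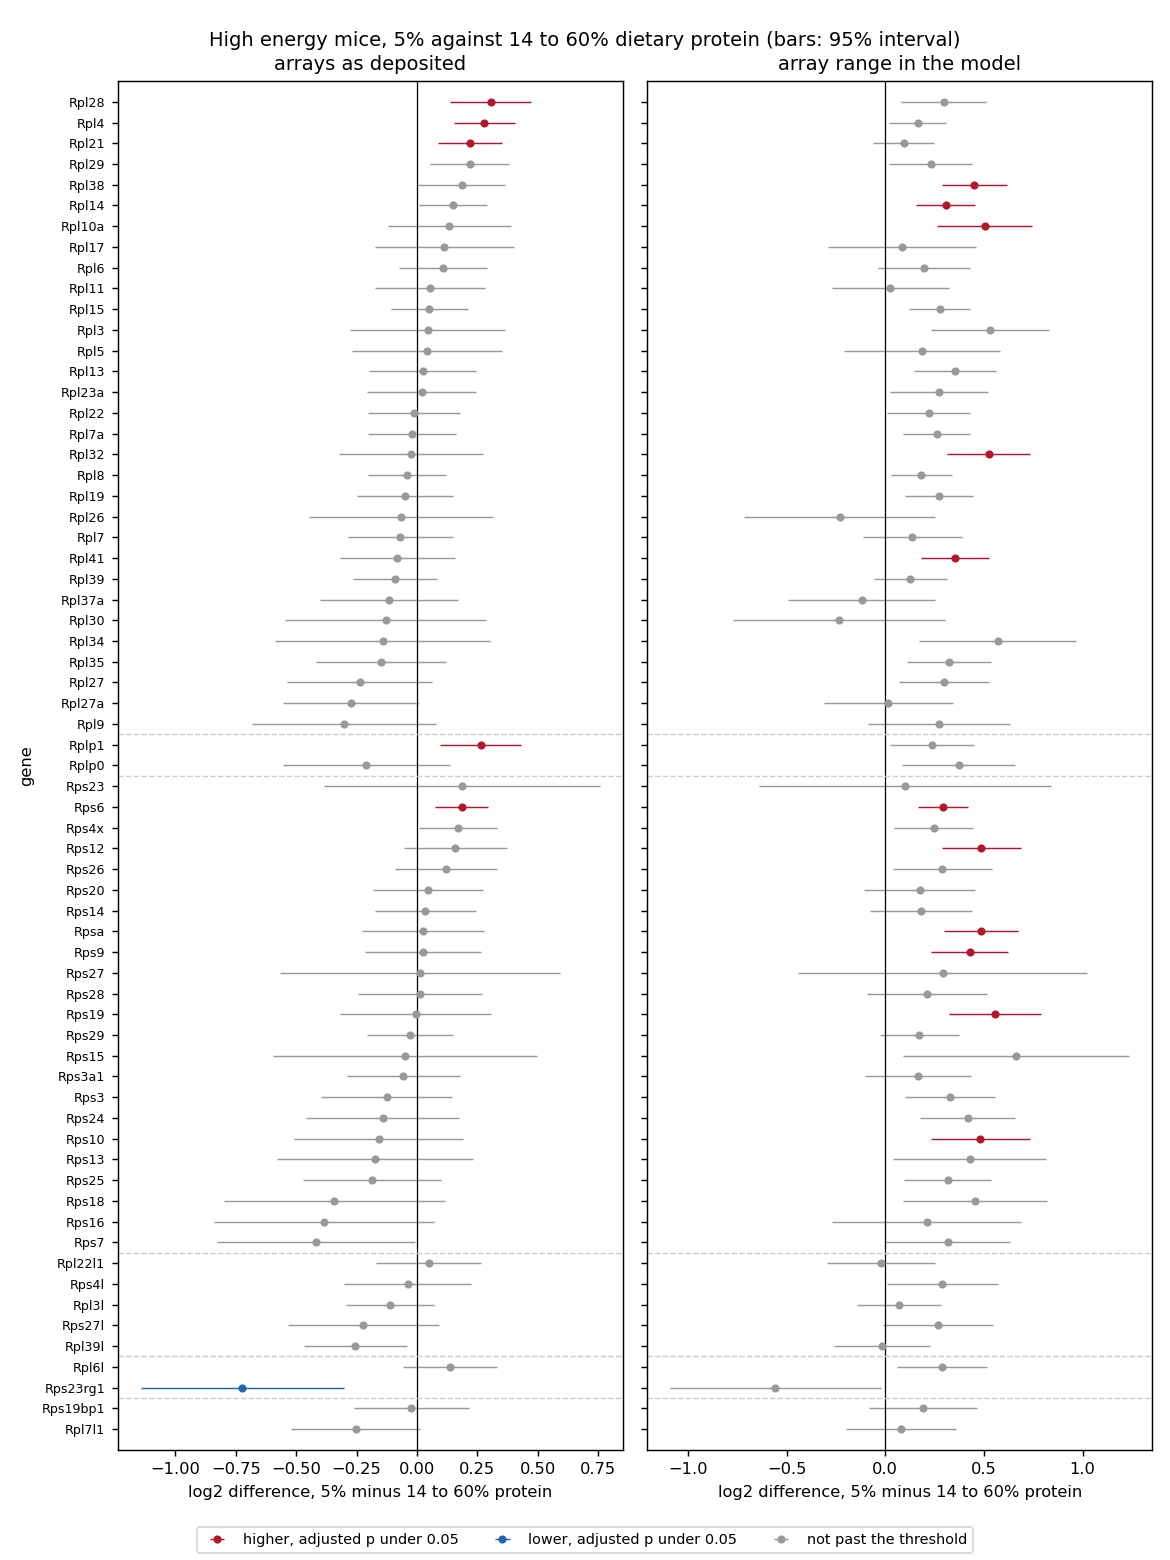
Log2 difference (horizontal axes) of the 65 members (rows, grouped from the top as large subunit, stalk, small subunit, paralogues, copies and genes outside the mature ribosome) between 5% and 14 to 60% protein in high energy mice, with 95% intervals, without (left) and with (right) the array range in the model. On the left 29 points lie above 0, on the right 59.

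A further comparison, with no term for the range, used the arrays whose range lay within that of the 5% arrays, 3.22 to 3.63. It set the same 10 mice on 5% protein against 9 of the 19 others. Ranges were closer but not equal, 3.48 ± 0.13 at 5% protein and 3.36 ± 0.08 in the 9 mice (SD), whose highest was 3.47. At 5% protein, 3 members were higher, Rpl38, Rpl14 and Rps6, and 0 were lower, against 0.928% of all genes higher. Rpl38 averaged 9.62 ± 0.16 at 5% protein and 9.24 ± 0.18 in the 9 mice (SD), a difference of 0.38 (SE 0.085, adjusted p = 0.0226). Rps6 averaged 10.96 ± 0.08 at 5% protein and 10.71 ± 0.11 in the 9 mice, a difference of 0.24 (SE 0.061, adjusted p = 0.0409), and the lowest mouse on 5% protein, 10.87, lay above the highest of the 9, 10.86. Over all 65 members 56 differences were above 0, with a median of 0.13.

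Dividing each array by its range gave differences of the opposite sign. No member was then higher, 16 were lower at 5% protein, 8 of 65 differences were above 0 and the median was -0.50. That scaling shifted the median of all genes to -0.070 and called 19.2% of them lower. Rps6 stood at -0.62 and Rpl4 at -0.54 under it (adjusted p = 0.0429 and 0.0333). By construction this scaling lowers genes of high level on arrays of larger range. The members' median level was 6.65, against 3.74 over all tested genes, and 31 of the 69 were in the top 10% of them. Genes of equal level were not compared. The sign of the differences is not read as a diet effect under this scaling or with the array range in the model.

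**Figure D3:**
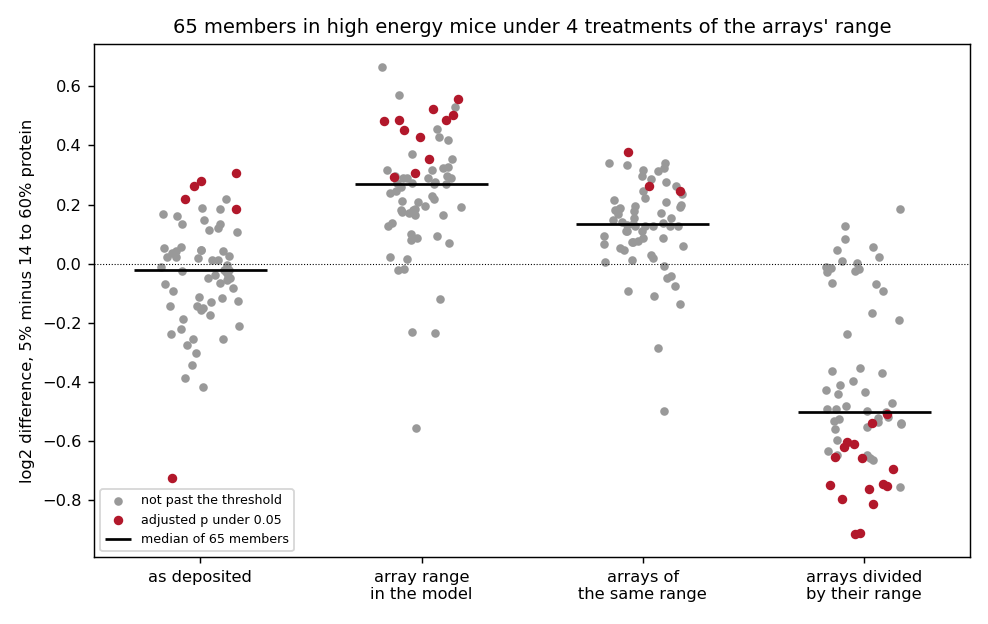
Log2 difference (vertical axis) of the 65 members between 5% and 14 to 60% protein in high energy mice under 4 treatments of the array range (horizontal axis), 1 point per gene, red where the adjusted p was under 0.05, with a bar at the median. The medians are -0.023, 0.27, 0.13 and -0.50 from left to right.

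Array range and ribosomal protein level moved together. The mean over the 65 members correlated with the array range at r = -0.48 and rho = -0.58 over the 48 mice, at r = -0.67 without the medium energy 14/29/57 mouse, at r = -0.91 over the 10 mice on 5% protein and at r = -0.83 over the 19 others on high energy. These are descriptions of arrays that each supply both measures. Over single genes, 50 of 65 members (76.9%) had a negative r with the array range, against 48.8% of all genes. Rps27l had the lowest, -0.70, and Rpl21 and Rpl4 the highest, 0.62 and 0.61. Rpl29, Rpl28 and Rplp1 were also positive, at 0.38, 0.36 and 0.26. The members called at 5% protein without the array range, apart from Rps23rg1, all had a positive r, and Rps6 had 0.098. The part of the array range in the diet differences was not tested apart from these fits.

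**Figure D4:**
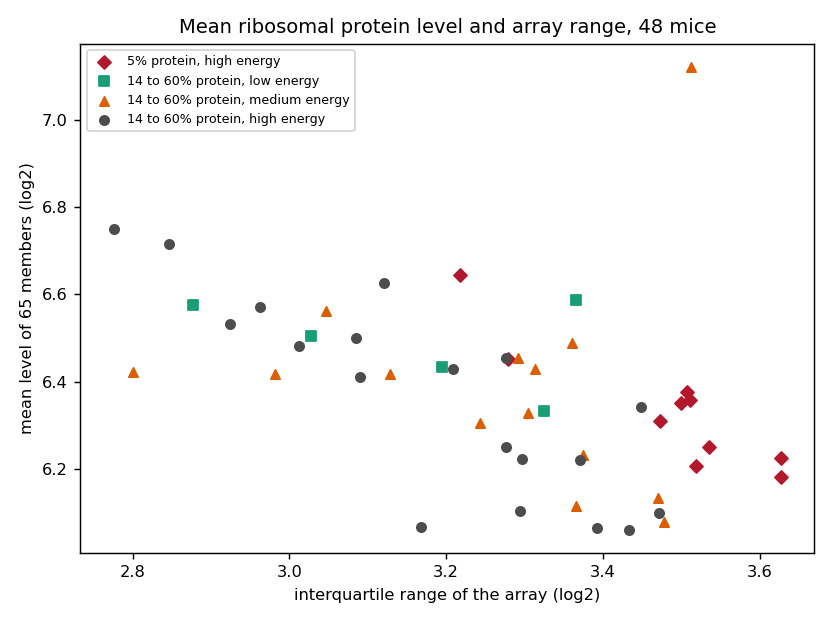
Mean level of the 65 members (log2, vertical axis) against the interquartile range of the array (log2, horizontal axis), 1 point per mouse, by protein share and energy density. The means decline with the range at r = -0.48 over 48 mice, with the medium energy 14/29/57 mouse alone at the top at 7.12.

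The members also moved together among mice of one diet. Over deviations from the mean of each diet combination, the median r of the 2080 pairs of members was 0.31, and 35.2% of pairs exceeded 0.5. Over all pairs of genes the median was 0.0045, and 4.68% exceeded 0.5. Among the 37 members with a mean level over 6 the median was 0.63. The closest pair was Rpl19 and Rpl27, both large subunit proteins, at 0.94. Across subunits Rpl15 and Rps3, a small subunit protein at the message entry, reached 0.92. Rps3 followed the mean of the other members most closely, at 0.93.

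Rpl4 and Rpl21 went against the rest, with r = -0.35 and -0.21 to the mean of the other members, and Rplp1 stood near 0 at 0.026. Rpl28 and Rpl29, both of the large subunit, kept with each other at r = 0.80 and apart from the main block. Some weak probe sets, such as those of Rpl30, Rpl11 and Rpl6, with mean levels of 1.24 to 1.56, also stood near 0. Others as weak followed the rest, such as Rpl39 (mean 1.43) at 0.63 and Rps15 (mean 1.49) at 0.59. The points share array, signal and normalization, so these values describe the arrays.

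**Figure D5:**
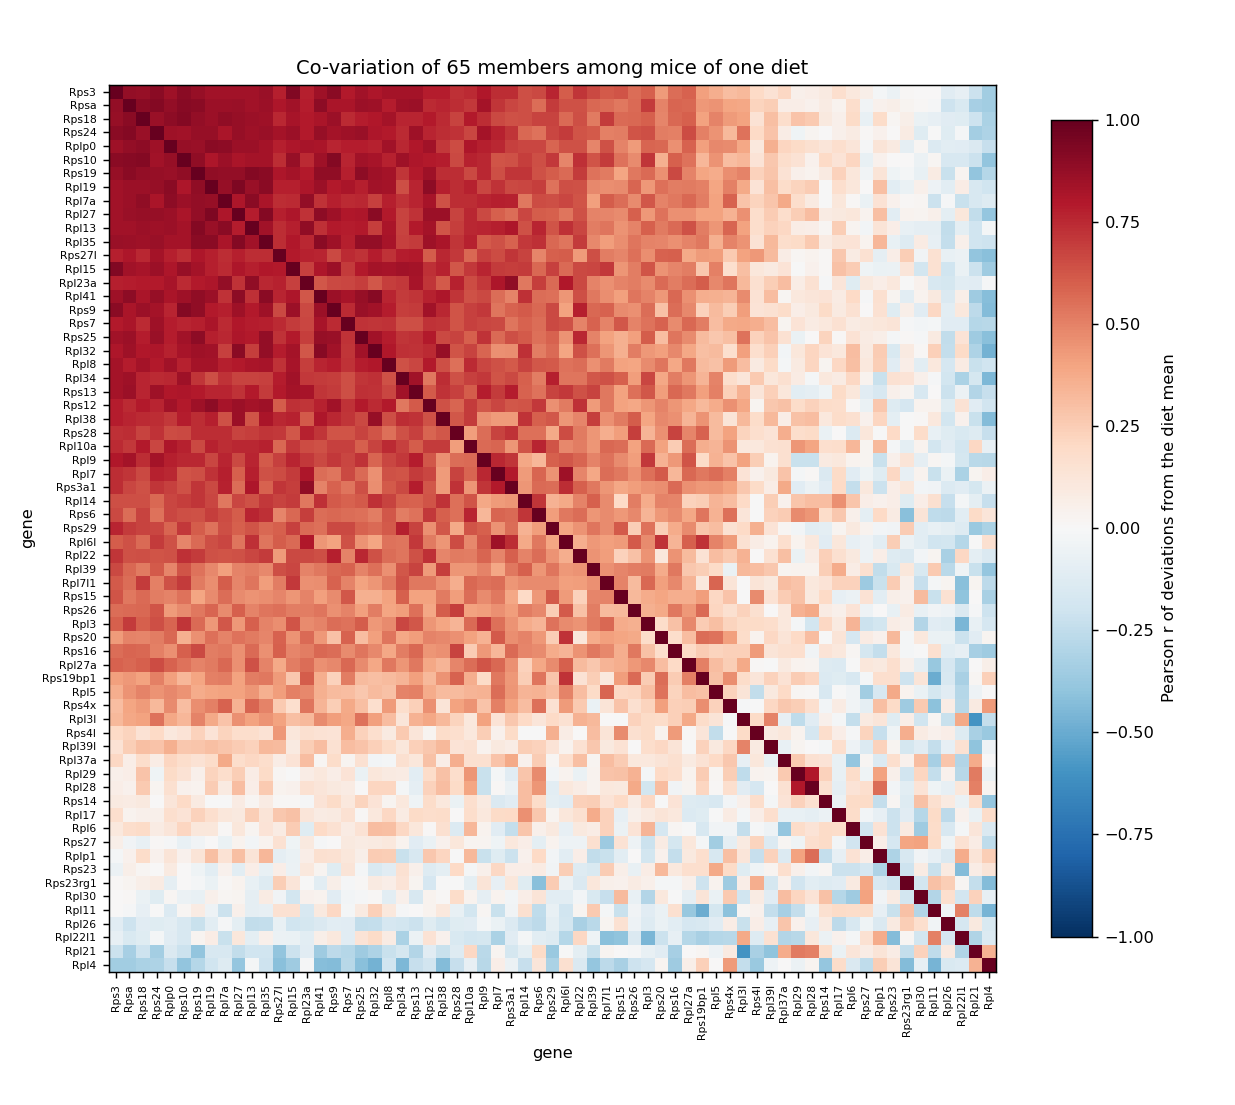
Pearson correlation (colour, -1 to 1) of the deviations from the diet mean for each pair of the 65 members, over 48 mice, ordered by the correlation of each gene with the mean of the others. A block led by Rps3 and Rpsa fills the upper left, and Rpl21 and Rpl4 stand last.

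The start sites of the called genes are shown because the pyrimidine tract at the first base is what marks these messages. RefSeq windows of the GRCm38.p6 build were used for 54 of the 69 members, in 63 windows. Windows of members on a chromosome set aside were left out, and the windows of all genes were not cut in this way. A C followed by 4 pyrimidines at the annotated first base was found in 11 windows, 17.5%, against 2.51% of 32851 windows of all genes. The motif CCGGAA, the core of ETS family sites, on either strand of the 300 bases was found in 47.6% of members' windows, against 14.9% of all. Of the 17 members called in a protein comparison 14 had a window, and 5 had the C and 4 pyrimidines at the first base. Those 5 and then 3 called members without it follow, 15 bases before and 15 from the annotated first base on, with the longest run of pyrimidines in capitals.
Rps6 (chr4:86857353-86857382, minus strand): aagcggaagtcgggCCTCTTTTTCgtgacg
Rpl28 (chr7:4792950-4792979, plus strand): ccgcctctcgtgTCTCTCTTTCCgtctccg
Rpl38 (chr11:114668565-114668594, plus strand): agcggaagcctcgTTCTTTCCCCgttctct
Rpl14 (chr9:120571502-120571531, plus strand): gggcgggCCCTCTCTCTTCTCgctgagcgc
Rps10 (chr17:27635230-27635259, minus strand): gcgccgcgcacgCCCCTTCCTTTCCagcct
Rpl4 (chr9:64173372-64173401, plus strand): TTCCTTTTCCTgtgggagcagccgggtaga
Rpsa (chr9:120127751-120127780, plus strand): gtgggttatttaaggacgtcaTTTCCggcc
Rps4x (chrX:102189377-102189406, minus strand): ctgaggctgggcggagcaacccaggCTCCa
In Rps6, Rpl28, Rpl38, Rpl14 and Rps10 the run spans the first base. In Rpl4 a run of 11 ends upstream of it. Among the called members without the C and 4 pyrimidines that are not shown, the longest run spans the first base in Rps9 and Rps23rg1. In Rpl10a, Rpl41, Rps12 and Rps19 it does not. A missing run shows only that these letters are not at the annotated base.

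Energy density was compared next. Between high and medium energy, 0 members passed the threshold with limma, 0% of all genes did, and 2 members and 1376 genes had an unadjusted p under 0.05. Adding the array range gave 0 members and 0% of genes past the threshold, and 4 members and 10.6% of genes at an unadjusted p under 0.05. Rpl38 averaged 9.49 ± 0.23 in 29 high energy mice and 9.68 ± 0.30 in 14 medium energy mice (SD), with a fitted difference of -0.21 (adjusted p = 0.552). Rps15, a small subunit protein, averaged 1.63 ± 0.72 in high energy mice and 1.21 ± 0.45 in medium energy mice, with a fitted difference of 0.48 (adjusted p = 0.553). The median over the members was -0.080, and 0.0075 without the medium energy 14/29/57 mouse, so that mouse set the sign of the median.

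Low and high energy were compared at 60/20/20, with 3 mice each. At 23/38/38 the members' mean was 6.59 in 1 low energy mouse and averaged 6.41 in 3 high energy mice. At 42/29/29 it was 6.33 in 1 low energy mouse and 6.75 in 1 high energy mouse. At 60/20/20 Rps12 stood at 9.88, 9.96 and 9.99 in the low energy mice, against 9.10, 9.17 and 9.55 in the high energy mice. Rpsa stood at 9.43, 9.79 and 9.93 in the low energy mice, against 8.80, 8.82 and 9.47 in the high energy mice. Rpl13, a large subunit protein, stood at 9.48, 9.76 and 9.81 in the low energy mice, against 8.73, 9.05 and 9.44 in the high energy mice. The low energy mice were above all high energy mice for Rps12 and Rpl13 and overlapped 1 of them for Rpsa.

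No member passed the threshold there (limma, 0% of all genes). Rps12 differed by 0.67 (SE 0.21, adjusted p = 0.384), Rpl13 by 0.61 (adjusted p = 0.408) and Rpsa by 0.69 (adjusted p = 0.408). Differences were above 0 for 51 of 65 members, with a median of 0.25, and 13 had an unadjusted p under 0.05, against 10.1% of all genes. Adding the array range left 0 members and 0% of genes past the threshold, 4 members and 6.77% of genes at an unadjusted p under 0.05 and a median of 0.12. The members' mean of the high energy mouse 194 was 6.63, above the 6.43 to 6.58 of the 3 low energy mice. Without mouse 194 the median was 0.41, with 58 of 65 above 0 and 0 members past the threshold. The number of members at an unadjusted p under 0.05 hung on single mice. It was 2 without mouse 126, 4 without 125, 4 without 141, 11 without 142, 16 without 104 and 29 without 194. The share of all genes in these fits is not given here.

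The exchange of fat for carbohydrate at fixed protein gave 0 members past the threshold and 0% of all genes, without and with the array range, and 0 members with an unadjusted p under 0.05 in either limma fit (665 and 1002 of all genes). The smallest p belonged to Rps4l, a paralogue of Rps4x, with 0.064 for 10 points moved from fat to carbohydrate (95% interval -0.0039 to 0.13, adjusted p = 0.999). The median slope of the members was -0.0017. Their slopes lay between -0.045 and 0.064. Protein slopes were also compared between medium and high energy: 0 members and 0 genes differed past the threshold, and 4 members and 958 genes (5.66%) had an unadjusted p under 0.05.

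Other parts of the translation machinery were set beside the ribosomal proteins. Their counts are read against all genes, of which 3.65% fell and 3.37% rose with protein. At 5% protein 11.2% of all genes were higher and 6.42% lower. With the array range 113 of 16926 genes passed for the slope and 267 at 5% protein. Of 71 mitochondrial ribosomal proteins, which are made in the cytosol and serve the organelle's own ribosome, 15 rose and 0 fell with protein, and 0 were higher and 19 lower at 5% protein. None passed in either comparison with the array range (limma; 6 had an unadjusted p under 0.05 for the slope and 9 at 5% protein), and the median difference at 5% protein was 0.013, against 0.27 for the cytosolic proteins. Of 20 other messages with a pyrimidine tract, 4 fell with protein and 4 were higher at 5%. Among them Eef2, which moves the ribosome along the message, had a slope of -0.14 (adjusted p = 0.0165) and Pabpc1, the poly(A) binding protein, -0.12 (adjusted p = 0.0431). Npm1, a nucleolar chaperone, had a slope of -0.068 (adjusted p = 0.0248), and -0.080 with the array range (adjusted p = 0.0388), where it was the single call of that list.

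Of 53 ribosome assembly factors, 3 fell with protein, and 15 were higher and 1 lower at 5% protein. Among all genes these shares were 3.65%, 11.2% and 6.42%. Nop58, a core protein of the methylation guide particles, was higher by 0.66 (adjusted p = 0.000816). With the array range its partner Nop56 was the single call, higher by 0.54 (adjusted p = 0.00439). Of 19 genes for RNA polymerase I transcription 1 fell with protein, Myc, at -0.24 (adjusted p = 0.0316), and 5 were higher and 1 lower at 5% protein. Myc, which drives ribosome synthesis, was higher by 1.17 at 5% protein (adjusted p = 0.000562) and by 0.71 with the array range (adjusted p = 0.133).

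Of 22 initiation factors 0 passed for the slope in limma, 7 had an unadjusted p under 0.05, and 4 were higher and 1 lower at 5% protein. Of all genes, 26.6% had an unadjusted p under 0.05 for the slope and 3.65% fell. At 5% protein 11.2% of them were higher and 6.42% lower. Eif3c of the scaffold that binds the small subunit was higher by 0.57 (adjusted p = 0.00452). Of 22 genes that control growth and translation of tract messages 3 fell with protein, and 5 were higher and 1 lower at 5% protein. The leucine sensor Sesn2 was higher by 1.44 (adjusted p = 0.00127) and Mtor by 0.99 (adjusted p = 0.0134). Sesn3, of the same family, was the single call with the array range, at -0.79 (adjusted p = 0.00103).

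Markers of other liver cells moved in the same comparison. Of 10 stellate cell and fibroblast markers 7 were higher and 0 lower at 5% protein, with a median difference of 0.57, and the sum of their log2 levels ran from 54.6 to 70.1 at 5% protein, against 49.0 to 59.1 at 14 to 60%. The same comparison had 3 of 10 endothelial markers, 1 of 10 macrophage markers and 1 of 10 lymphocyte markers higher, and 1 of 9 hepatocyte markers lower. Of all genes, 11.2% were higher and 6.42% lower in it. Summed hepatocyte markers ran from 104 to 106 in both groups. Mean levels of the stellate markers were between 3.91 and 10.04, so none was at 0. None of the stellate, endothelial, macrophage and lymphocyte markers passed with the array range (limma; unadjusted p under 0.05 for 3, 0, 0 and 2), and the stellate median was 0.36. In whole liver, fewer cells of a type and less RNA per cell cannot be told apart, and the part of these cells in the ribosomal protein levels was not tested.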

How the data were processed

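Liver RNA from 48 mice was hybridized to Affymetrix arrays after biotin labelling (per the labels). The deposited table holds log2 values, read as such from their range (-0.51 to 13.4). How the authors corrected background and normalized, and with what software, is not given in the sources used here. Values were used as deposited. Arrays give no counts, so their number limits the precision.

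Gene symbols came from the platform annotation (25335 of 41345 probe sets listed, 1814 with several symbols, left out), matched to RefSeq by gene ID for all 69 members. A gene was its probe set with the highest mean, and 25 members had several. The 30th percentile of probe set means (1.17) was the lower limit for testing a gene, which 16926 passed. A further 57 ribosomal protein probe sets with several symbols were left out, and 14 symbols (such as Rpl10, Rpl12, Rpl13a and Rps2) occurred only there. Levels of different probe sets are not compared. Ribosomal protein genes have many near-identical copies in the genome, and signal from them was not told apart.

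Models used limma 3.58.1 in R 4.3.3 (lmFit, then eBayes with trend): protein, the carbohydrate to fat exchange and energy as a factor over 48 mice; 1 mean per diet combination for low against high energy at 60/20/20; and 5% against 14 to 60% protein with the exchange among 29 high energy mice. Tests were two-sided, adjusted over all genes by Benjamini-Hochberg, threshold 0.05, on separate animals. Cage is not in the labels, so it was not in the models and any cage mates counted as independent. The models for the protein slope and for 5% protein were run on simulated data with independent noise for each gene. The simulation held no array range shared between genes, so it does not bear on how the range is treated. The array range as a term, and the alternatives of the closing section, were fitted to the whole table.

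Members and gene lists were chosen with earlier results of these data known, so no count over members is independent evidence. Genes named were up to 6 of each sign called in a comparison, or else the 3 smallest p, a fixed set of members with known roles, and up to 3 of each other list; those named for correlation, start sites or leave-one-out fits were chosen after their values were seen.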

Additional observations from a re-analysis of the deposited data

Results flagged for a closer look

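In 84 tests of a member within a diet combination of 4 mice, 5 values lay farther from the other 3 than Dixon's 95% value allows. Chance flags about 1 in 20 such groups. Rps19 and Rpl13 were both low in 1 mouse on the high energy 5/48/48 diet (135), at 7.20 against 7.88 to 7.96 for Rps19 in the other 3, and at 9.16 against 9.63 to 9.70 for Rpl13. Rps4l was high in another mouse on that diet (434), at 2.04 against 1.24 to 1.35. On the high energy 14/29/57 diet Rpl32 was high in 1 mouse (402), at 8.94 against 8.32 to 8.39, and Rpl3l was low in another (136), at 0.93 against 1.21 to 1.26.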

How the results depend on the processing

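For the protein slope, 4 members were called as reported. The count was 2 with no filter, 9 with array weights, 7 on the log2 of the protein share, 1 with diet combination as a random block, in high energy diets alone or with protein exchanged for carbohydrate, and 0 with the array range, with the array range and the Y-linked minus Xist level, without the 12 arrays of smallest range, with protein exchanged for fat or with arrays divided by their range. It ran from 1 to 7 over the leave-one-out fits. Of all 16926 genes, 1187 were called for the slope as reported, 113 with the array range and 1756 with arrays divided by their range. Arrays divided by their range turned Rpl28, Rps4x, Rpl4 and Rps6 to 0.079, 0.063, 0.087 and 0.097. For 5% against 14 to 60% protein, 6 were called as reported. The count was 11 with the array range, 13 with it and the Y-linked minus Xist level or after quantile normalization with it, 2 without the 12 arrays of smallest range or over all diets, 3 among arrays of the same range, 16 with arrays divided by their range, and 0 for 5% against 14% alone. It ran from 4 to 7 over the leave-one-out fits. Of all genes, 2979 were called as reported, 267 with the array range, 291 among arrays of the same range and 4062 with arrays divided by their range. The share of all genes in the remaining settings is not given here, so the member counts there are not read against it. Rps19, Rpl32 and Rps10, below 0 as reported, stood at 0.56, 0.52 and 0.48 with the array range, at 0.58, 0.60 and 0.54 with the Y-linked minus Xist level too, and at 0.57, 0.54 and 0.49 after quantile normalization with the array range. Arrays divided by their range put Rpl28, Rpl4, Rplp1, Rpl21 and Rps6 at -0.49, -0.54, -0.49, -0.61 and -0.62. The cause was not tested. The same-range, divided and quantile with array range settings were chosen after seeing the data. The exchange, high against medium and low against high counts were 0 in every setting run. No paired analysis was possible because mouse numbers are unique to a mouse. Signal limits the 14 members with mean levels under 2.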

Other observations

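Members had 38 further probe sets that were tested, which share arrays and often sequence with those used above. Of these, 2 held the same values as a probe set already used and 6 of Rps12 held identical values, which left 31 distinct profiles. In a fit of 28941 probe sets these 31 had a median difference of -0.10 between 5% and 14 to 60% protein, with 9 above 0, 2 higher (Rpl3 and Rpl21) and 0 lower, against 10.5% of all probe sets called in either direction. With the array range the median was 0.18, with 24 above 0, and 2 were higher, both of Rps12, against 0.791% of all probe sets called. The 57 probe sets shared with other symbols, such as pseudogenes, had a median of -0.023 without the array range, with 25 above 0, 1 higher and 1 lower. With the array range their median was 0.21, with 50 of 57 above 0 and 4 higher. Of those 4, 2 carried Rpl12, a large subunit protein of the stalk base, at 0.71 and 0.65 (adjusted p = 9.8e-05 and 0.000343). Without the array range these 2 differed by 0.28 and 0.20 in limma (adjusted p = 0.116 and 0.262), not past the threshold.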
